A study of Mus musculus with 4 samples.

Results

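A set of 10 genes known as signs of tubule injury was followed through 4 single-cell libraries of mouse kidney: Tnfrsf12a, Tnfsf12, Sprr1a, Capg, Krt8, Krt18, Krt19, Havcr1, Lcn2 and Spp1. They are 10 of the 31053 genes in the deposited feature lists and were found there by symbol. They had been chosen with earlier results of these same libraries in view, so the values below describe the libraries and no test was made of them.

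Tnfrsf12a encodes Fn14, a small receptor of the TNF receptor family, and Tnfsf12 encodes its ligand TWEAK. Ligand binding recruits TRAF adaptors and the inhibitor-of-apoptosis proteins bound to them, which frees the kinase NIK (gene Map3k14) and activates canonical and non-canonical NF-kB. Sprr1a encodes a small proline-rich protein of the cornified envelope of squamous epithelium, and Capg an actin filament capping protein related to gelsolin. Krt8 and Krt18 encode the keratin pair of simple epithelia, and Krt19 a keratin of ducts and urothelium. Havcr1 encodes KIM-1, a phosphatidylserine receptor of injured proximal tubule, Lcn2 the siderophore-binding protein NGAL, and Spp1 the secreted phosphoprotein osteopontin. In the kidney these genes are best known from ischaemic, toxic and obstructive injury.

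The mice were C57BL/6 (C57BL/6J in the protocol), of both sexes and 10 weeks old. FGF23, a bone-derived hormone that lowers phosphate reabsorption and acts through FGF receptors with the co-receptor Klotho, was given as 10 µg of the recombinant human protein per mouse in a single intraperitoneal injection, and kidneys were taken after 1, 4 or 12 h. The control is labelled 0 h with a dose of 0 µg, but its matrix file is named for saline and 1 h, and the labels leave undecided whether these mice had an injection. Kidneys of male and female mice were digested together for each library, so each group is 1 library of pooled animals whose number is not given, and a mouse or preparation effect cannot be told apart from a time effect. Cells were enzymatically dissociated, depleted of red cells and of dead cells by Annexin V, and measured with 10x Genomics 3′ chemistry. The 24 h group that the protocol mentions was not analysed here.

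The libraries held 12245 to 13813 barcodes and 139675666 to 158838728 UMIs (unique molecular identifiers, 1 per captured transcript), and 8875 to 10243 cells per library were kept. Between 36 and 57 barcodes were shared by any pair of libraries. Cells were clustered over all libraries and named from marker genes, and the names end in "-like" because they were rebuilt here. The distal convoluted tubule (DCT-like) cells formed 1 cluster led by Slc12a3 and Pvalb, with 324, 287, 351 and 267 cells at 0, 1, 4 and 12 h. The connecting tubule (CNT-like) cells formed another cluster led by S100g, Klk1 and Calb1, with 94, 134, 174 and 159 cells. A further cluster of shallow cells held Calb1, Pvalb and S100g together. It is called the mixed distal cluster and is given apart, with 76, 61, 131 and 178 cells.

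All levels are CPM, the UMIs of a gene divided by all UMIs of its class and library and scaled to a common total, and the intervals given are exact 95% intervals (Poisson for levels, conditional binomial for ratios, Clopper-Pearson for shares) that cover counting error only. With 1 library per time point no p-value and no standard deviation across mice can be given. A gene was read for a class and time when it held at least 20 UMIs over both libraries, and a ratio of at least 2-fold is called higher or lower. DCT markers summed to between 16073 and 19431 CPM in DCT-like cells, and CNT markers to between 86474 and 109157 in CNT-like cells. The CNT-like cells were not free of the DCT marker Slc12a3, at 3944 CPM at 0 h against 12914.5 in DCT-like cells. In the CNT-like cells without Sprr1a it was at 4064, 2939 and 2889 CPM at 1, 4 and 12 h. DCT was the second-scoring class of their cluster.

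Promoter sequences of 2 members are shown because the gene with the steepest contrast between cells, Sprr1a, and the receptor gene, Tnfrsf12a, were the only members whose 250 bases upstream of the start held any of 4 motifs searched on both strands. The motifs were AP-1 (TGANTCA), CRE (TGACGTCA), EGR (GCGNGGGCG) and ETS (CCGGAAGT). The sequences are from RefSeq (GRCm38.p6), written 5′ to 3′ on the gene's strand, with the motif in capitals. The RefSeq table held 8 of the 10 members, and had none for Tnfsf12 and Krt19. The Sprr1a sequence is chr3:92485882-92486131 on the minus strand, and the Tnfrsf12a sequence is chr17:23677450-23677699 on the minus strand.
Sprr1a: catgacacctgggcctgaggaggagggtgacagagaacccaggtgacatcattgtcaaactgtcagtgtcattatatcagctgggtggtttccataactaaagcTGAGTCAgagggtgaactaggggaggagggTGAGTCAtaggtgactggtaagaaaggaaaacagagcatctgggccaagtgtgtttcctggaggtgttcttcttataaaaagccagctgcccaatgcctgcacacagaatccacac
Tnfrsf12a: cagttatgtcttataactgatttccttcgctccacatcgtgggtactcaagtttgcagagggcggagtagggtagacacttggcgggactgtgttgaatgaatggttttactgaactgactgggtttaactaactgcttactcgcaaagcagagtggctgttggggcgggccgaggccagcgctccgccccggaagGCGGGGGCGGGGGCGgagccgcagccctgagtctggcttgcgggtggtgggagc
The Sprr1a stretch held 2 AP-1 matches, from 146 to 140 and from 116 to 110 bases before the start. Of 32851 promoters of the same length, 6.75% held an AP-1 match. The Tnfrsf12a stretch held 2 EGR matches that overlap each other, from 54 to 46 and from 48 to 40 bases before the start, and 4.70% of promoters held one. A match is a run of letters and not a site shown to be bound.

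Tnfrsf12a, the Fn14 receptor gene (chromosome 17, 23675445 to 23677468 on the minus strand of GRCm38, from the GENCODE vM21 annotation), was higher in DCT-like cells of every library after injection and highest at 4 h. Its level there was 14.5 CPM in the 0 h library (48 UMIs, interval 10.7 to 19.3), 152 after 1 h (522 UMIs, 139 to 166), 503 after 4 h (2146 UMIs, 482 to 525) and 108 after 12 h (352 UMIs, 97.4 to 120). None of the 4 intervals overlapped. The 4 h level was 34.6-fold the 0 h level (26 to 47.1), a log2 ratio of 5.11. The 1 h and 12 h log2 ratios were 3.39 (2.96 to 3.85) and 2.90 (2.46 to 3.37).

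The number of DCT-like cells that carried the transcript moved with its level. A Tnfrsf12a UMI was found in 12.7%, 68.3%, 93.2% and 53.6% of these cells at 0, 1, 4 and 12 h. After every cell was thinned to 2000 UMIs the shares were 2.52%, 23.2%, 57.6% and 13.6%. In T/NK-like cells, which should lack the receptor, the share was between 0.785% and 1.71%, although their median depth of 2775 to 3183 UMIs was below the 10641 to 12264 UMIs of DCT-like cells. DCT-like cells held 3.07% of all Tnfrsf12a UMIs at 0 h and 16.7% at 4 h, when they were 3.43% of cells. The median share of mitochondrial UMIs in these cells was 34.8%, 35.1%, 28.3% and 30.9% in order of time. With a limit of 25% in place of 50% the 4 h log2 ratio was 4.0.

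CNT-like cells had less of the transcript at every time. Their levels were 3.01, 14.8, 80.8 and 14.2 CPM in order of time, from 4, 30, 223 and 33 UMIs. At 0 h that was 4 of 1328461 UMIs, while T/NK-like cells, which should lack the receptor, held 3 of 913273. The CNT-like 0 h level was thus not above that background. The 4 h level of 80.8 CPM (70.6 to 92.2) was far below the 503 of DCT-like cells, and a UMI was found in 50% of CNT-like cells. The log2 ratio at 4 h, 4.75, had an interval of 3.37 to 6.63 that contains the DCT-like ratio, so the 2 classes differed in level but not detectably in ratio at this depth. The mixed distal cluster lay between them at 4 h, at 352 CPM (311 to 398), against 5.43 at 0 h from 2 UMIs.

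PT-like cells of the proximal tubule, the largest class with 6301 to 7286 cells per library, held most of the transcript. They carried 75.5% of Tnfrsf12a UMIs at 0 h and 73.9% at 4 h. Their levels were 13.3, 27.4, 95.6 and 20.5 CPM, with an interval of 93.7 to 97.6 after 4 h. The 4 h log2 ratio was 2.85 (2.76 to 2.94), and a UMI was found in 58.3% of cells at 4 h against 15% at 0 h. At 4 h all 16 PT-like clusters were at least 2-fold higher than at 0 h, by 3.59-fold to 33.9-fold, with levels of 46.6 to 119 CPM. Their 0 h levels were 2.12 to 23.4 CPM, so the upper end of that range starts from a low level. The clusters are parts of the same 2 libraries. At 12 h 15 of the 16 clusters were still above 0 h, and 2 of them by 2-fold or more.

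In the remaining tubule classes Tnfrsf12a was less far from its 0 h level. In TAL-like cells of the thick ascending limb it was 13.3, 19.2, 33.3 and 18.4 CPM in order of time, with a 4 h log2 ratio of 1.33 (0.81 to 1.88). Principal (PC-like) cells were highest at 1 h, at 25.3, 68, 47.2 and 7.19 CPM from 23, 46, 95 and 7 UMIs, and their 12 h level was below their 0 h level (log2 ratio −1.82, −3.28 to −0.55). Intercalated (IC-like) cells were at 25, 30.7, 41.8 and 22 CPM. Urothelial-like, endothelial-like and mesenchymal-like cells had 4 h ratios whose intervals include no change. At 0 h the named classes lay between 3.01 CPM in CNT-like and 42 CPM in mesenchymal-like cells. The order at 4 h was DCT-like, mixed distal, PT-like and CNT-like cells, whose intervals did not overlap, followed by PC-like, IC-like, urothelial-like, mesenchymal-like and TAL-like cells, each of which overlapped its neighbours.

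**Figure D1:**
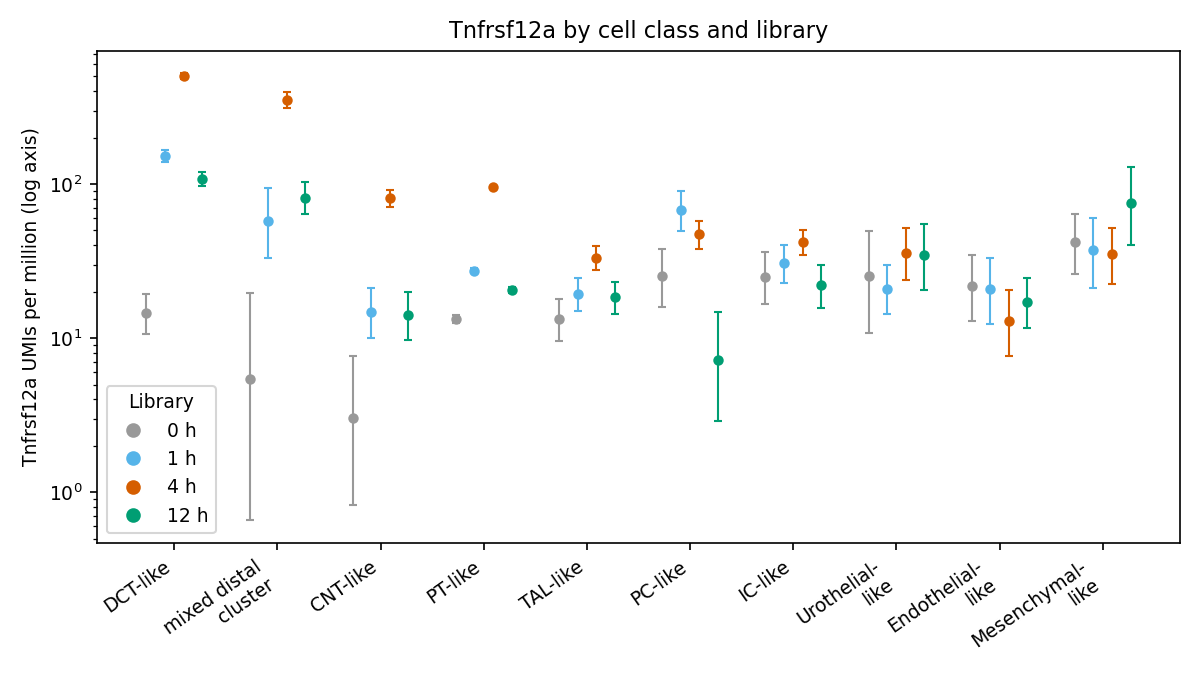
Tnfrsf12a level (CPM, log axis) in 10 cell classes, 1 point per library, coloured by time, with 95% Poisson intervals for counting error. The 4 h point stands highest in DCT-like cells at 503 and in the mixed distal cluster at 352, while PC-like cells are highest at 1 h, at 68.

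Tnfsf12, the gene of the ligand TWEAK (chromosome 11, 69686250 to 69695849, minus strand), was found mainly outside the class with the most receptor transcript. DCT-like cells held 0, 2, 1 and 3 UMIs of it at 0, 1, 4 and 12 h, and CNT-like cells 0, 1, 0 and 0. The highest levels were in endothelial-like cells, at 138, 125, 110 and 123 CPM, and in mesenchymal-like cells, at 116, 100, 81.9 and 81 CPM, whose intervals overlapped at each time. Macrophage-like cells were at 44.9, 49.2, 47.6 and 52 CPM. These 3 classes showed no ratio to 0 h whose interval leaves out no change.

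In PT-like cells the ligand was higher in each later library. Its level was 15.3, 17.9, 24.3 and 32.1 CPM in order of time, with intervals of 14.5 to 16.1, 17.1 to 18.8, 23.3 to 25.2 and 30.9 to 33.4. None of these intervals overlapped, and the 12 h log2 ratio was 1.07 (0.98 to 1.17). At 12 h the level was above that of 0 h in 16 of 16 PT-like clusters, by 1.34-fold to 2.86-fold. Tnfsf12 is overlapped on its own strand by Tnfsfm13, a read-through gene, and on the opposite strand by Tnfsf13os, so part of its count is uncertain. Both were low in PT-like cells, at 0.247 to 0.352 and 0.484 to 0.741 CPM.

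The genes that act after the receptor were taken as a list of 15 (TRAFs, inhibitor-of-apoptosis proteins, NIK, IKK and NF-kB subunits). In DCT-like cells 14 were read. At 1 h, 1 was higher and 1 lower, at 4 h 5 were higher and 1 lower, and at 12 h 3 were higher and none lower. Of all genes read in these cells 1.62%, 4.63% and 3.78% were higher and 2.16%, 4.34% and 2.63% lower in order of time. The list's median log2 ratio was −0.21, 0.27 and 0.22, against −0.04, −0.01 and 0.02 over all genes. Map3k14 (NIK) was at 3.63, 14.6 and 19.9 CPM in the first 3 libraries. Nfkb2, which encodes the p100 precursor of non-canonical NF-kB, was at 6.36 CPM in the 0 h library and at 22 and 25 CPM after 4 and 12 h. Its partner Relb was at 6.36, 2.33, 21.6 and 15.4 CPM in order of time. Birc3, an inhibitor-of-apoptosis protein, was at 5.45 CPM at 0 h and 18.5 at 12 h, and Traf1, a TRAF adaptor, was lower at 4 h (3.75 against 9.39 CPM). In CNT-like cells 2 of 12, 1 of 11 and 0 of 10 were higher at 1, 4 and 12 h, where 1.86%, 2.68% and 2.32% of all genes were, and the list's median was 0.05, −0.32 and −0.09 against 0.01, −0.04 and −0.02 over all genes. The one at 4 h was Nfkb2, at 10.5 against 3.01 CPM. In PT-like cells 0, 1 and 1 of 13 were higher, where 0.82%, 2.98% and 2.72% of all genes were, and the median was 0.06, 0.35 and 0.25 against 0.01, 0.04 and 0.02. The gene was Relb at both times, at 2.38 and 1.74 CPM against 0.798 CPM.

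Over the 10 members, DCT-like cells held 4 read genes at 1 h, of which 1 was higher and none lower, where 1.62% of all 9829 genes read were higher and 2.16% lower. At 4 h 6 of 6 read members were higher, where 4.63% of 10011 genes were higher and 4.34% lower. At 12 h 5 of 6 were higher, where 3.78% of 9938 genes were higher and 2.63% lower. In CNT-like cells 2 of 6 (1.86% of all genes), 2 of 5 (2.68%) and 1 of 6 (2.32%) members were higher and none lower (1.35%, 3.39% and 2.56% of all genes). In PT-like cells 2 of 10 (0.82%), 2 of 9 (2.98%) and 2 of 10 (2.72%) were higher and 1 was lower at each time (1.84%, 3.11% and 2.96%). The lower one was Havcr1 at 1 h, whose 0 h UMIs lay mostly in 1 cell, and Lcn2 at 4 and 12 h, from 19 UMIs at 0 h. In TAL-like cells the counts were 1 of 6 (1.2%), 5 of 7 (1.36%) and 2 of 6 (1.24%), in PC-like cells 1 of 6 (2.02%), 3 of 9 (4.2%) and 0 of 6 (2.34%) with 1 lower at 12 h (2.86%), and in the mixed distal cluster 0 of 2 (4.0%), 3 of 4 (7.53%) and 2 of 5 (9.14%). The counts for CNT-like cells at 1 h and PC-like cells at 4 h each include Sprr1a, whose UMIs there lay mostly in 1 cell. Sprr1a is also among the PT-like members higher at 1 and 12 h, from 26 and 24 UMIs against 7 at 0 h. Those UMIs lay in 26 of 6301 and 11 of 6320 PT-like cells. Since the members were chosen on these contrasts, nothing is read from their counts. The median log2 ratio of the read members in DCT-like cells was 0.17, 2.55 and 2.53. In the mixed distal cluster at 12 h the median of all genes was 0.11, so its ratios are to be read against that shift.

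**Figure D2:**
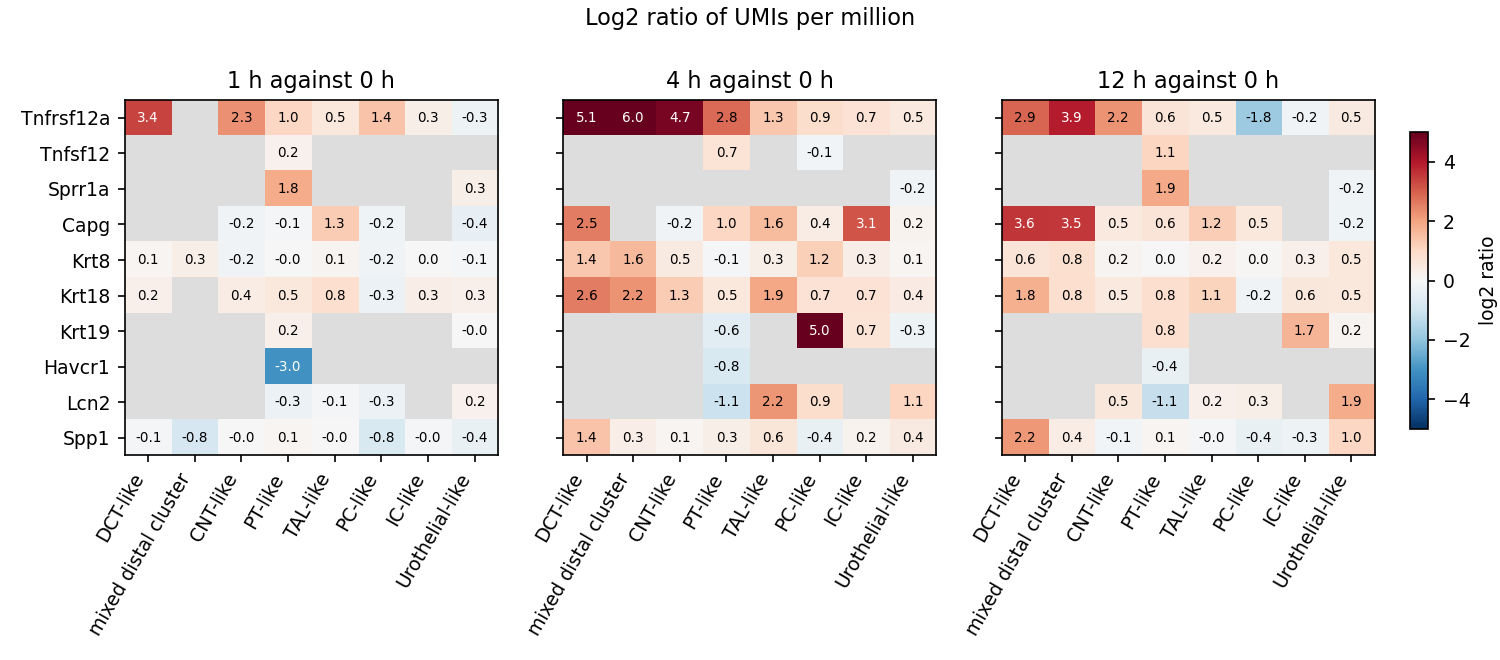
Log2 ratio of CPM to the 0 h library for the 10 genes (rows) in 8 tubule and urothelial classes (columns) at 1, 4 and 12 h, with red for higher and blue for lower and the value printed in each field. Grey marks a gene under 20 UMIs over both libraries or without UMIs at one time, such as Sprr1a in DCT-like cells, and the colour is clipped at 5, so the 5.1 of Tnfrsf12a in DCT-like cells and the 6.0 of the mixed distal cluster share a shade.

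Sprr1a (chromosome 3, 92483952 to 92485895, minus strand), whose promoter is printed above, was almost absent from tubule cells at 0 h and reached many UMIs in a few DCT-like cells at 4 h. DCT-like cells held 0, 2, 350 and 49 UMIs in order of time. The level was 82.1 CPM after 4 h (73.7 to 91.1) and 15.1 CPM after 12 h (11.2 to 20). Against a floor of 3 counts in the 0 h group, these were at least 90.3-fold and at least 16.6-fold higher. None of 324 cells had a UMI at 0 h, which at 3 counts of the total allows a share of cells with a UMI of up to 0.926%. Of 287 cells 2 had one after 1 h, of 351 cells 25 (7.12%) after 4 h, and of 267 cells 15 (5.62%) after 12 h. The gene's transcripts sat in few cells. At 4 h the 10 richest cells held 94, 59, 34, 27, 21, 21, 16, 14, 9 and 8 UMIs, the top 3 held 187 UMIs or 53.4% of the total, and 8 cells held 1 or 2. Without the richest cell the 4 h level was 60.3 CPM.

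Urothelial-like cells, the class that carried the gene at every time, were at 2293, 2843, 2037 and 2024 CPM. These are levels over unlike cells, since 9 of 19, 21 of 66, 31 of 60 and 16 of 38 had no Sprr1a UMI. The cells without one held 65, 63, 132 and 105 urothelial marker UMIs, against 2384, 8444, 4433 and 6558 in those with one. Urothelial-like cells held 97.2%, 98.8%, 75.7% and 92.3% of all Sprr1a UMIs, and DCT-like cells 16.6% of them at 4 h. The 25 DCT-like cells with Sprr1a at 4 h held 1 urothelial marker UMI and no Krt19 UMI among them. Their Slc12a3 level, the sodium-chloride cotransporter that defines the segment, was 11352 CPM against 11719 in the 326 other DCT-like cells, while Pvalb, which encodes the calcium buffer parvalbumin and leads the cluster with it, was at 330 against 669 CPM. Over all DCT-like cells the 7 urothelial markers summed to 1.51, 1.46, 1.88 and 2.16 CPM from 5, 5, 8 and 7 UMIs. Upk2, Krt5 and Krt15 were at 0 throughout.

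The DCT-like cells with Sprr1a were also higher in other members at 4 h. All 25 had a Tnfrsf12a UMI, but so did 302 of the 326 other cells, so its presence does not separate the groups. The Tnfrsf12a level was 885 CPM in the cells with Sprr1a against 469 in the others. Krt8 was at 486 against 138 CPM, Krt18 at 312 against 81.4 CPM, Capg at 31.8 against 18.4 CPM and Spp1 at 6052 against 2502 CPM. Their median depth was 14589 UMIs against 12262, and its part in these contrasts was not tested. After thinning to 2000 UMIs, 200 of 347 cells held a Tnfrsf12a UMI, 17 a Sprr1a UMI and 13 both. A Sprr1a UMI was thus found in 6.5% of cells with a Tnfrsf12a UMI and in 2.72% of those without. These shares rest on few cells, and their difference was not tested. At 12 h the 15 cells with Sprr1a had Spp1 at 17676 against 3685 CPM and Krt18 at 314 against 41.5 CPM, while Tnfrsf12a was at 140 against 106 CPM. Both segment markers were lower in these 15 cells than in the 252 others, Slc12a3 at 8574 against 11919 CPM and Pvalb at 126 against 511 CPM, and they held 3 urothelial marker UMIs against 4 in the others.

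Other tubule cells had little Sprr1a. CNT-like cells held 0, 20, 1 and 1 UMIs, and 18 of the 20 lay in 1 cell. The 3 CNT-like cells with Sprr1a at 1 h carried 39 urothelial marker UMIs and 14 Krt19 UMIs. The mixed distal cluster held 0, 0, 17 and 10 UMIs. PC-like cells held 37 UMIs at 4 h and none at the other times, with 29 in 1 cell. TAL-like cells held 0, 1, 26 and 0 UMIs, and the 26 lay in 1 cell of 49955 UMIs, so that cell alone puts Sprr1a among the 5 TAL-like members counted higher at 4 h. PT-like cells held 7, 26, 7 and 24 UMIs in all. Of the other genes of the cornified envelope, 16 of a list of 17 were in the feature lists and 1 was read in DCT-like cells. It was Lor (loricrin), higher at 1 and 4 h, at 7.87 and 11.7 CPM against 2.12 CPM. In PT-like cells Lor was at 1.77 against 0.202 CPM at 4 h, and Tgm1, the transglutaminase that cross-links the envelope, at 29.7 against 12.6 CPM.

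**Figure D3:**
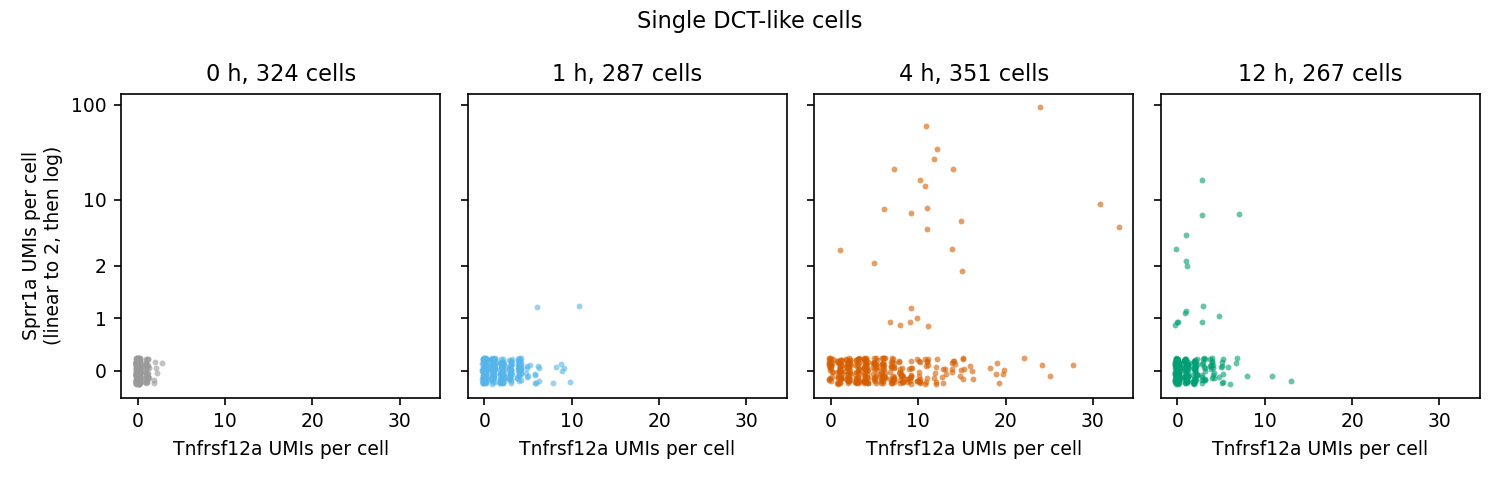
Single DCT-like cells of each library by their Tnfrsf12a UMIs (horizontal, linear) and Sprr1a UMIs (vertical, linear to 2 and then logarithmic), with small random shifts so that points do not hide each other. At 4 h 25 of 351 cells lie above 0 on the vertical axis, the highest at 94 UMIs. All of them have a Tnfrsf12a UMI, as do 302 of the 326 other cells.

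Capg (chromosome 6, 72544391 to 72562983, plus strand) was highest in DCT-like cells at 12 h, later than Tnfrsf12a and Sprr1a. Its levels were 3.33, 2.33, 19.5 and 39.4 CPM in order of time, from 11, 8, 83 and 128 UMIs. The 1 h interval overlapped that of 0 h and the 4 and 12 h intervals did not. The 12 h level was 11.8-fold that of 0 h, a log2 ratio of 3.57 (2.68 to 4.6). A UMI was found in 3.4%, 2.79%, 17.9% and 34.5% of cells. In CNT-like cells the gene was at 8.28, 7.39, 7.25 and 11.6 CPM, and the 12 h log2 ratio of 0.49 had an interval of −0.57 to 1.65. That interval ends below the DCT-like one.

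In the mixed distal cluster Capg was at 2.71, 3.63, 5.46 and 31.7 CPM from 1, 1, 4 and 28 UMIs. TAL-like cells had log2 ratios of 1.25, 1.59 and 1.24 in order of time, at 6.15 CPM at 0 h and 14.5 to 18.5 after. PC-like cells were already at 68.2 CPM at 0 h and at 97.6 at 12 h. PT-like cells were at 4.64, 4.35, 9.39 and 7.19 CPM. Most of this lay in 1 of 16 PT-like clusters, which held 795 of the 931 UMIs at 4 h and where Capg was at 192, 261, 296 and 207 CPM. The 4 h log2 ratio in PT-like cells, 1.02, was smaller in male-called cells alone (0.34) and in female-called cells alone (0.33). Of 9 other genes of the gelsolin and actin capping family, 7 were read in DCT-like cells, with 1 higher and 1 lower at 4 h (4.63% and 4.34% of all genes) and 2 higher and 1 lower at 12 h (3.78% and 2.63%). Scin (scinderin, an actin-severing protein) was at 8.18 CPM in the 0 h library and at 22.3 and 40.7 CPM after 4 and 12 h, and Gsn (gelsolin) at 321 CPM after 12 h against 123 CPM. Svil (supervillin) was lower, at 2.34 and 2.46 CPM after 4 and 12 h against 6.06 CPM. No gene of this family passed 2-fold in CNT-like or PT-like cells.

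Krt8 and Krt18, neighbours on chromosome 15 that lie 23697 bases apart, were both highest at 4 h in DCT-like and PC-like cells. In DCT-like cells Krt8 was at 64.8, 68.8, 166 and 101 CPM in order of time, with a 4 h log2 ratio of 1.36 (1.14 to 1.59). Krt18 was at 17, 20.1, 100 and 58.8 CPM, with log2 ratios of 2.56 (2.16 to 2.99) after 4 h and 1.79 (1.36 to 2.25) after 12 h. In CNT-like cells the pair was nearer its 0 h level. Krt8 there was at 106, 95.1, 146 and 118 CPM and Krt18 at 56.5, 72.4, 137 and 79.7 CPM, so only Krt18 passed 2-fold, at 4 h (1.28, 0.92 to 1.66). The Krt18 intervals of the 2 classes at 4 h did not overlap. In PC-like cells Krt8 was at 335, 298, 762 and 345 CPM and Krt18 at 511, 415, 850 and 457 CPM.

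PT-like cells kept Krt8 between 61.5 and 65.9 CPM in the 4 libraries, and Krt18 lay between 0.595 and 1.06 CPM there. Krt8 overlaps the antisense RNA Gm36026 at its start. TAL-like cells had Krt8 at 59.2 to 72 CPM, and Krt18 at 3.56, 6.32, 13.4 and 7.77 CPM.

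Krt19 (chromosome 11, 100140810 to 100148665, minus strand) was found in PC-like cells mainly at 4 h. The level was 2.2, 4.43, 71 and 7.19 CPM from 2, 3, 143 and 7 UMIs, a 4 h log2 ratio of 5.01 (3.13 to 8.07). A UMI was found in 36.1% of the 119 PC-like cells at 4 h, or 10.1% after thinning to 2000 UMIs. Urothelial-like cells were at 2283, 2235, 1897 and 2536 CPM. Endothelial-like and mesenchymal-like cells also held most of theirs at 4 h, at 12, 1, 42 and 0 UMIs and at 1, 0, 21 and 4 UMIs. The endothelial-like cells held Sprr1a (4, 1, 36 and 0 UMIs), Krt8 (6, 1, 34 and 5) and Krt18 (15, 0, 25 and 1) mostly at 4 h too. The part of single cells in these counts was not tested. The 3 PC-like cells with Sprr1a at 4 h all had a Krt19 UMI. DCT-like cells held 0 Krt19 UMIs in all 4 libraries, which at a floor of 3 counts allows up to 0.909 CPM at 0 h. The PC-like cells of the 4 h library also held more neutrophil marker UMIs (79.4 CPM, against 1.03 to 13.3 CPM in the other libraries) and mesenchymal marker UMIs (44.2 CPM, against 0 to 5.5 CPM). The part of those cells in the result was not tested. Of 10 other keratins 2 were read in DCT-like cells and neither passed 2-fold at any time. In PC-like cells Krt23 was at 77.4 CPM at 4 h against 38.5 CPM. In PT-like cells Krt20 had 47 UMIs at 4 h and none at 0 h, and Krt15 27 UMIs at 12 h and 6 at 0 h. Krt15 is also a urothelial marker here. At 12 h the highest of the 16 PT-like clusters had Krt19 at 12.8 CPM, against a median of 0.256 CPM over the clusters. For Sprr1a the highest was 6.42 CPM against a median of 0. How the Krt20 and Krt15 UMIs were spread over cells was not tested.

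**Figure D4:**
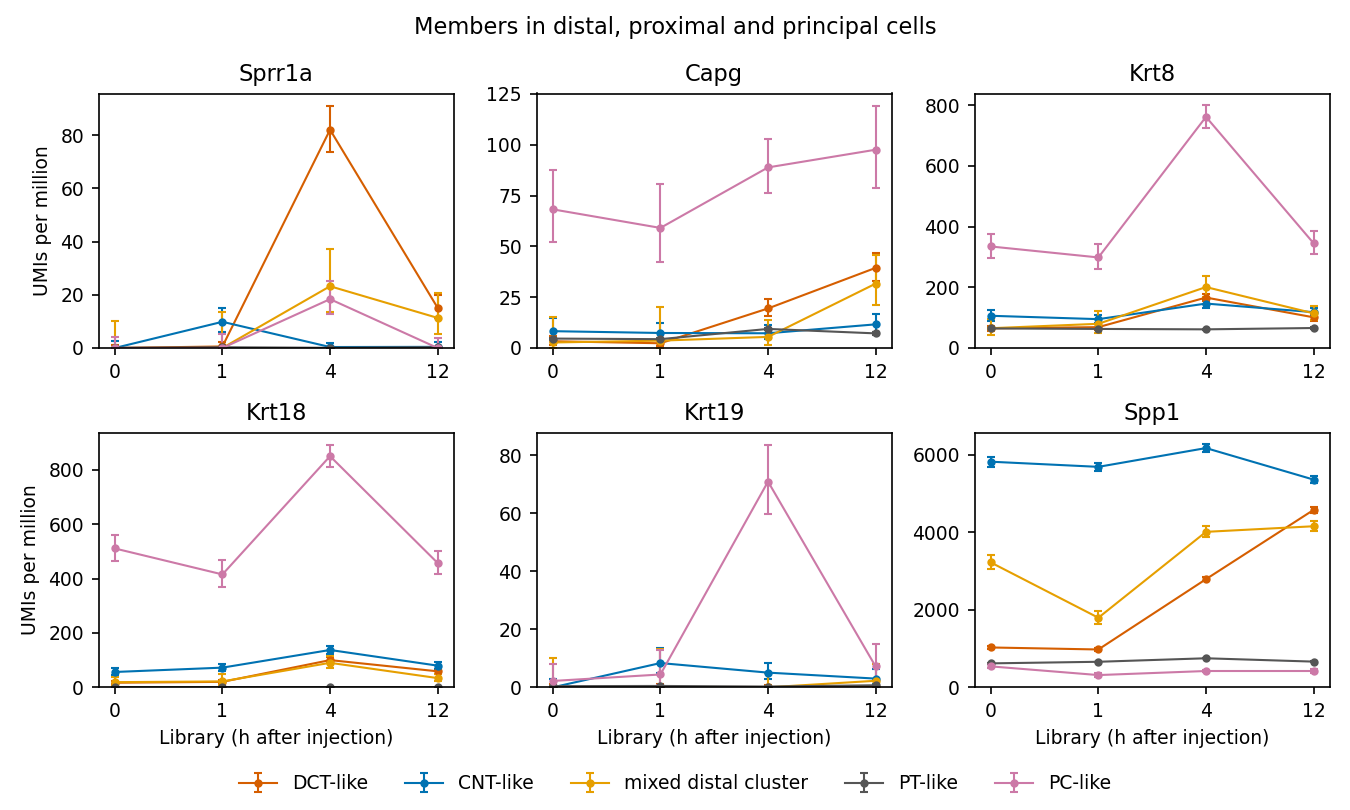
Levels (CPM, linear axes that differ between panels) of 6 genes in 5 classes at 0, 1, 4 and 12 h, which are drawn equally spaced, with 95% Poisson intervals for counting error. Among the classes drawn, Sprr1a, Krt8, Krt18 and Krt19 are highest at 4 h in the class that carries the most of each, whereas Capg and Spp1 in DCT-like cells are highest at 12 h, at 39.4 and 4577.

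Havcr1, the KIM-1 gene (chromosome 11, 46735080 to 46779578, plus strand), was rare. PT-like cells held 148, 19, 96 and 105 UMIs of it at 0, 1, 4 and 12 h, and 129 of the 148 lay in 1 cell. The count of cells with a UMI was 19, 12, 81 and 69, or 0.291%, 0.19%, 1.11% and 1.09% of PT-like cells. With all cells the log2 ratio was −3.01, −0.78 and −0.38 after 1, 4 and 12 h. Without the richest cell of each library it was −0.84, 2.12 and 2.47. Most of the UMIs that could be assigned to a sex lay in male-called PT-like cells, at 142, 15, 70 and 64, against 0, 0, 7 and 5 in female-called cells. DCT-like, TAL-like and PC-like cells held none in any library.

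Lcn2, the NGAL gene (chromosome 2, 32384633 to 32388252, minus strand), had its highest level in neutrophil-like cells, at 1799, 1856, 2289 and 895 CPM. They held 81.6%, 80.3%, 21.3% and 19.7% of all Lcn2 UMIs in order of time, and PC-like cells 10.7%, 6.58%, 37.6% and 39.8%. These shares also depend on how many cells were kept. There were 352, 325, 79 and 60 neutrophil-like cells and 67, 57, 119 and 82 PC-like cells. Among tubule classes PC-like cells had the most, at 163, 131, 300 and 197 CPM in order of time, and the interval of the 4 h level, 277 to 325, overlapped none of the others. The 4 h log2 ratio was 0.88 (0.62 to 1.15). Neutrophil markers in the same PC-like cells summed to 12.1, 13.3, 79.4 and 1.03 CPM, and their part in this ratio was not tested. Male-called cells, at 227 CPM in the 0 h library, had a ratio of 0.36 (0.06 to 0.66). Female-called cells, at 44 CPM from 12 UMIs, had one of 2.92 (2.1 to 3.89). In TAL-like cells Lcn2 was at 5.5, 5.17, 25.2 and 6.47 CPM, but 65 of the 90 UMIs at 4 h lay in 1 cell, and without the richest cells the log2 ratio of 2.2 was 0.55. DCT-like cells held 1, 0, 5 and 9 UMIs. PT-like cells held 19, 16 and 10 UMIs at 0, 1 and 4 h, and 6 of them had a UMI at 12 h. Of the receptors of lipocalin and the other TIM genes, a list of 5, 2 were read in DCT-like cells and neither passed 2-fold. In CNT-like cells Lrp2, the endocytic receptor megalin of proximal tubule, was lower at 1 h, at 20.2 against 43.7 CPM.

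Spp1, the osteopontin gene (chromosome 5, 104435118 to 104441050, plus strand), was present in nearly every distal cell, and in DCT-like cells it was higher at 4 and 12 h. Its level there was 1028, 976, 2790 and 4577 CPM in order of time, and no interval overlapped that of the 4 or 12 h library. The log2 ratios were −0.07, 1.44 (1.39 to 1.5) and 2.15 (2.1 to 2.21). CNT-like cells started above all of these, at 5820 CPM, and were at 5687, 6171 and 5358 CPM after. Their 12 h log2 ratio was −0.12 (−0.16 to −0.08). At 12 h the DCT-like level had come nearer to that of CNT-like cells without reaching it. The mixed distal cluster was at 3222, 1795, 4010 and 4155 CPM.

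TAL-like cells were at 2521, 2499, 3860 and 2446 CPM, but 1 cell held 4208 of the 13786 UMIs at 4 h, and without the richest cells the log2 ratio of 0.61 was 0.14. PC-like cells were at 540, 316, 421 and 421 CPM and IC-like cells at 3308, 3211, 3746 and 2774 CPM. Of 7 osteopontin receptor genes 3 were read in DCT-like cells. Itgav, the integrin alpha V chain, was higher at 4 and 12 h, at 269 and 352 CPM against 91.8 CPM. In PT-like cells Itgb3, the integrin beta 3 chain, was at 0.352 CPM at 12 h against 0.157 CPM.

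The other tubule injury genes were taken as a list of 22. In DCT-like cells 2 of 9, 6 of 11 and 8 of 11 read genes were higher in order of time (1.62%, 4.63% and 3.78% of all genes), with none lower (2.16%, 4.34% and 2.63%). The list's median log2 ratio was 0.29, 1.14 and 1.62, against the same −0.04, −0.01 and 0.02 over all genes. Anxa2, a calcium-dependent membrane-binding protein, was at 30.7 and 13.6 CPM after 4 and 12 h against 0.909 CPM. Lgals3 (galectin-3) was at 590 and 592 CPM at the same times against 94.2 CPM, and Gdf15, a stress-induced cytokine, at 19.7 and 8.93 CPM against 1.82 CPM. Cdkn1a, the cell cycle inhibitor p21, was at 33.3, 83.6 and 122 CPM in the first 3 libraries. Atf3, a stress-induced transcription factor, was higher at 1 h, at 39.9 against 4.85 CPM. S100a6, a calcium-binding protein, was at 6.47 CPM at 12 h against 1.51 CPM.

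In CNT-like cells 1 of 9, 3 of 11 and 2 of 10 genes of that list were higher (1.86%, 2.68% and 2.32% of all genes) and 1, 2 and 2 were lower (1.35%, 3.39% and 2.56%). The median was −0.04, 0.26 and 0.18 against 0.01, −0.04 and −0.02 over all genes. S100a6 had the largest ratio and was lower, at 36.9, 28.1, 0.725 and 7.33 CPM in order of time from 49, 57, 2 and 17 UMIs. Hmox1 (haem oxygenase) was at 4.52 CPM at 0 h and 15.8, 21.7 and 17.7 after. Sox9, a transcription factor of tubule repair, was at 6.89 and 11.2 CPM after 4 and 12 h against 0.753 CPM from 1 UMI. In PT-like cells 2 of 20, 5 of 19 and 0 of 19 were higher (0.82%, 2.98% and 2.72% of all genes) and 1, 4 and 2 lower (1.84%, 3.11% and 2.96%), with a median of −0.25, 0.53 and 0.13 against 0.01, 0.04 and 0.02. Hmox1 was at 64.2, 178, 439 and 26.3 CPM there. Plaur, the urokinase receptor gene, was at 1.22 CPM at 4 h against 0.292 CPM. Atf3 was lower at 4 and 12 h, at 0.262 and 0.0608 CPM against 1.07 CPM, and Anxa3, an annexin, was lower at 1 and 4 h, at 0.0867 and 0.0907 CPM against 0.292 CPM. Sox9 was at 0.206 CPM at 1 h against 0.0786 CPM. The Atf3, Anxa3 and Sox9 levels under 1 CPM rest on few UMIs in a class of 82290663 to 99184698 UMIs per library. How they were spread over cells was not tested.

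Cell division genes were few in distal cells. At 4 h 2 of 4 read genes of a list of 7 were higher in DCT-like cells (4.63% of all genes). They were Top2a, a DNA topoisomerase, at 5.86 against 1.21 CPM from 25 against 4 UMIs, and Cdk1, a cell cycle kinase, at 4.45 against 0.303 CPM from 19 against 1. Mcm2, of the replicative helicase, was at 8.93 against 2.12 CPM at 12 h. In CNT-like cells Top2a was at 14.5 against 2.26 CPM at 4 h and Mcm2 at 13.4 against 4.52 CPM at 12 h. In PT-like cells 3, 4 and 4 of 7 were lower at 1, 4 and 12 h (1.84%, 3.11% and 2.96% of all genes). Top2a was at 2.21, 0.932, 0.151 and 0.182 CPM there in order of time, Mki67 at 3.0, 1.34, 0.484 and 0.729 CPM, and Cdk1 at 2.17, 1.02, 0.302 and 0.51 CPM. Ccnb1 (cyclin B1) was at 0.434 and 0.425 CPM after 4 and 12 h against 0.899 CPM.

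Likeness to Tnfrsf12a over 51 class and library combinations of at least 50 cells was taken as the Pearson correlation of log2(CPM + 1). It was read for 8928 genes with at least 100 UMIs in DCT-like and CNT-like cells together, so genes scarce in those cells were left out. Combinations of 1 library share its cells, depth and dissociation, so the values are descriptions. Hbegf, which encodes a membrane-anchored ligand of the EGF receptor, had the highest value (r = 0.78). It was at 5.45, 438, 394 and 24 CPM in DCT-like cells and at 25.1, 138, 24.9 and 12.4 CPM in PT-like cells, so it was high at 1 h where Tnfrsf12a was highest at 4 h. Hagh (0.68), Plpp2 (0.67), Hcfc1r1 (0.66) and Ndufa7 (0.66) followed. Hcfc1r1 lies 217 bases from Tnfrsf12a on the opposite strand, and was at 186, 166, 225 and 174 CPM in DCT-like cells. For Sprr1a, whose UMIs lay mostly in urothelial-like cells, the highest among the same 8928 genes were Phlda3 (0.63), Rab27b (0.61), Arhgdig (0.6), Arpc1a (0.59) and Atrn (0.57). Phlda3, a p53-regulated inhibitor of AKT, was at 9.69, 11.7, 19.5 and 14.5 CPM in DCT-like cells.

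Each library pooled male and female kidneys, so cells that could be called male or female by sex-linked transcripts came from different animals of the same pool. In DCT-like cells Tnfrsf12a was at 13.8, 107, 576 and 123 CPM in male-called cells and at 15.4, 188, 405 and 83.5 CPM in female-called cells. Both were highest at 4 h, with log2 ratios of 5.39 (4.61 to 6.3) and 4.72 (4.2 to 5.29). In PT-like cells both were highest at 4 h as well, at 14.9, 26.6, 105 and 24.3 CPM for the male calls and 9.13, 38.6, 79.4 and 13 CPM for the female calls. In CNT-like cells the male calls had no UMI at 0 h and then 6.43, 102 and 21 CPM, and the female calls 4.45, 21.3, 42 and 9.04 CPM. Capg at 12 h had a log2 ratio of 4.0 (2.39 to 6.32) in male-called DCT-like cells and 4.03 (2.58 to 5.96) in female-called ones. Sprr1a differed more between them. At 4 h male-called DCT-like cells had 155 CPM (137 to 175) and female-called ones 8.89 CPM (5.08 to 14.4), and 14 of the 25 cells with a UMI were male-called and 3 female-called. At 12 h it was at 9.87 and 19.5 CPM. With 1 pool per time, sex and animal cannot be told apart.

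Levels at 0 h also differed by sex call in PT-like cells. Spp1 was at 187, 216, 267 and 267 CPM in male-called cells and at 1861, 1655, 1713 and 1518 CPM in female-called cells, in order of time. Tnfsf12 was at 10.9 and 27.1 CPM at 0 h, and its 12 h log2 ratio was 1.24 (1.1 to 1.39) in the former and 0.68 (0.52 to 0.85) in the latter. Capg was at 1.17 and 10.04 CPM at 0 h.

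**Figure D5:**
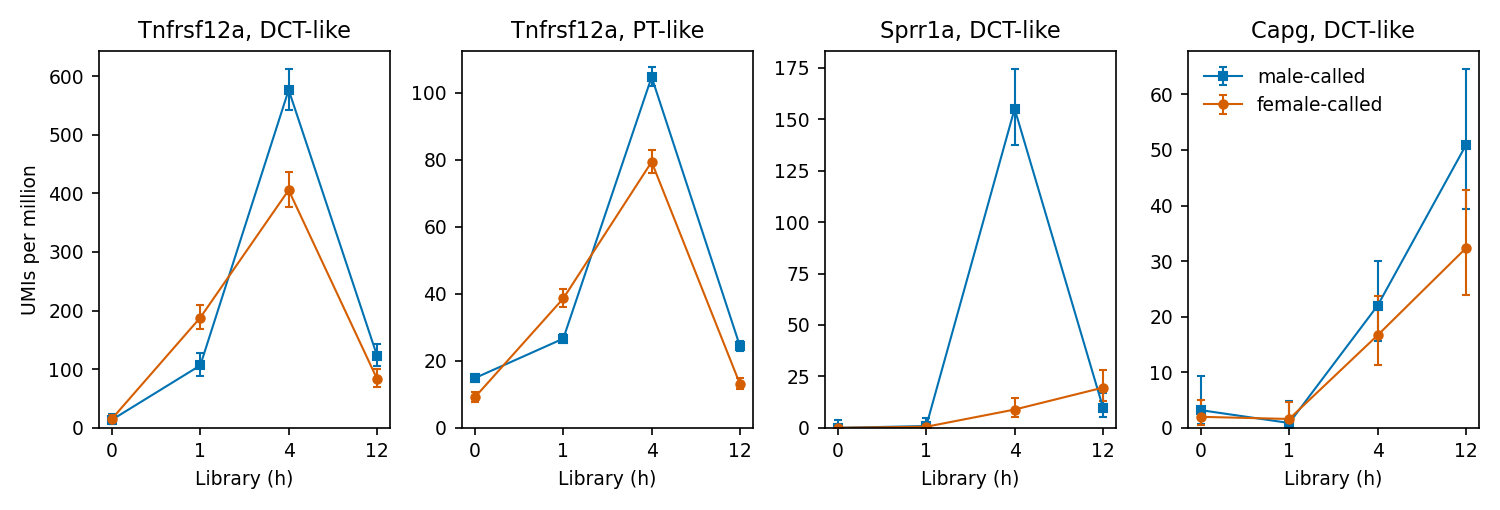
Levels (CPM, with 95% Poisson intervals for counting error) of Tnfrsf12a in DCT-like and PT-like cells and of Sprr1a and Capg in DCT-like cells, for male-called (squares) and female-called (circles) cells of each library, with times drawn equally spaced. Tnfrsf12a is highest at 4 h in both, and Sprr1a at 4 h stands at 155 in male-called cells against 8.89.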

How the data were processed

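Whole kidneys were measured in 4 droplet single-cell libraries, 1 each at 0, 1, 4 and 12 h. The deposited matrices hold raw UMI counts by gene and barcode, for barcodes the authors had already selected. Per the submitters' processing notes the tools were Cell Ranger 3.1.0, STAR and Seurat and the build mm10, and the annotation is not given in the sources used here. Positions were taken from GENCODE vM21 (GRCm38) by gene ID.

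Barcodes with under 300 genes or over 50% mitochondrial UMIs were left out, as were doublets, called per library among 30 neighbours at a rate that grew with the number of cells (6.35% to 7.89% of cells). Cells were clustered with leidenalg 0.10.2 (resolution 1.5, 30 components, 20 neighbours) into 49 clusters without the genes studied here, unless they were markers. A cluster was named when at least 3 markers of a class were on. It stayed unnamed, as 15 did, when over 50% of its cells were doublet calls, another class scored close to the first or had more markers among the top 10 genes, no marker of its own was among those genes (for PT, only in shallow clusters), or a deep cluster held markers of another class. These naming rules were settled once the clusters were known. UMIs were summed per class and library in Python 3.11.15 with scipy 1.17.1. Ratios and their intervals were run on simulated Poisson counts with known fold changes. Those counts were not clumped in single cells as some UMIs here were, so the run says nothing about such genes.

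The members, the gene lists and the marker lists were chosen with earlier results of these data known. All 10 members are named, and of each list, in DCT-like, CNT-like and PT-like cells, up to 4 genes per class and time with the largest ratio past 2-fold whose interval leaves out no change, besides the 5 nearest genes by correlation. Such genes of other classes are mostly not named. Marker genes, cells and results given with alternatives were picked after their values were seen. Cells were called male or female from X- and Y-linked transcripts. Where a gene overlaps another (Tnfsf12, Krt8), part of its count is uncertain. The levels of 1 marker list are not reported here. No comparison has a replicate check.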

Additional observations from a re-analysis of the deposited data

Results flagged for a closer look

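A set of 4 results had opposite directions in 2 cell classes at the same time, each with an interval that leaves out no change. These differences between classes were not tested. Each rests on 1 library per time.

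At 12 h Tnfrsf12a had a log2 ratio of −1.82 (−3.28 to −0.55) in PC-like cells, from 23 UMIs at 0 h and 7 at 12 h, and 3.91 (2.0 to 6.98) in the mixed distal cluster, from 2 and 72 UMIs. At 12 h Lcn2 had a log2 ratio of −1.01 (−1.32 to −0.70) in neutrophil-like cells, from 1128 and 95 UMIs, and 1.87 (0.61 to 3.41) in urothelial-like cells, from 6 and 36 UMIs.

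At 4 h Spp1 had a log2 ratio of −2.27 (−3.94 to −0.96) in macrophage-like cells, from 57 and 5 UMIs, and 1.47 (0.85 to 2.08) in neutrophil-like cells, from 59 and 39 UMIs. The macrophage-like class was 2 clusters, 1 led by Lyz2 with 54 cells at 0 h and 37 at 4 h, and 1 led by C1qa with 85 and 6 cells, so unlike mixes of cells were compared. In the former alone Spp1 was at 80.3 and 15.6 CPM, from 22 and 4 UMIs. B-like cells, which should lack the gene, held it at 80.9 and 40.4 CPM and T/NK-like cells at 47.1 and 50 CPM, so the macrophage-like levels of 88.2 and 18.3 CPM are not read as expression. At 12 h Spp1 had a log2 ratio of −2.64 (−2.96 to −2.32) in endothelial-like cells, where 273 of the 326 UMIs at 0 h lay in 1 cell, and 2.15 in DCT-like cells.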

How the results depend on the processing

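A chosen set of results was recomputed with a mitochondrial limit of 25%, another cluster resolution, doublets kept, male-called or female-called cells alone, cells weighted equally, mitochondrial genes left out of the total, and a minimum of 500 genes. The set was 34 log2 ratios of members and a few Sprr1a levels, and the other ratios in the text were not recomputed. Leaving out the cell richest in each gene was chosen after the data had been seen. Of 292 recomputed log2 ratios of 34 results, 288 kept their sign. Of 222 belonging to 26 results past 2-fold, 210 stayed past it. Settings that gave no value are left out of these counts.

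With the 25% limit the log2 ratios became 4.0 for Tnfrsf12a in DCT-like cells at 4 h, and at 12 h 4.93 for Capg and 3.14 for Spp1 in DCT-like cells, −0.86 for Capg in CNT-like cells and −1.04 for Havcr1 in PT-like cells. Sprr1a in DCT-like cells at 4 h became 156 CPM with that limit, 155 for male calls, 8.89 for female calls, 114 without mitochondrial genes and 60.3 without its richest cell. In CNT-like cells it was 0.362 CPM and became 0 with the 25% limit, in male-called cells and without the richest cell. In female-called cells the 4 h log2 ratio of Tnfrsf12a became 3.24 in CNT-like and 3.12 in PT-like cells, and the latter became 2.76 without mitochondrial genes. Spp1 in DCT-like cells at 12 h became 2.44 for male calls, 1.96 for female calls, 2.07 at resolution 1.0 and 2.08 without the richest cell. Tnfsf12 in PT-like cells at 12 h became 1.24 for male calls and 0.68 for female calls. Havcr1 in PT-like cells at 12 h became −0.81 in male-called cells, 0.57 with cells weighted equally and 2.47 without the richest cell. Lcn2 in PC-like cells at 4 h became 0.36 and 2.92 in male-called and female-called cells, 0.51 with cells weighted equally and 1.16 without the richest cell. Apart from the richest cell, the cause of these moves was not tested.

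Thinned to 2000 UMIs, the 4 h shares became 57.6% (Tnfrsf12a, DCT-like), 17.4% (Tnfrsf12a, PT-like) and 10.1% (Krt19, PC-like). The genes at least 2-fold higher at 4 h numbered 464 in DCT-like, 241 in CNT-like and 409 in PT-like cells, against 254, 46 and 204 with at least 100 UMIs and 1814, 795 and 2024 with no minimum. No value could be had where the 0 h group held no UMI, as for Tnfrsf12a in CNT-like cells with the 25% limit or in male-called cells. The mixed distal cluster was absent at resolution 1.0. No paired analysis was possible because each group is 1 library.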

Other observations

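An unnamed cluster of 45, 60, 65 and 55 cells, led by C3, Cp and Dcn, had Tnfrsf12a at 197, 216, 224 and 82.1 CPM in order of time (intervals 164 to 235, 189 to 245, 194 to 257 and 63.3 to 105). At 0 h this was above each named class, and the 4 h interval overlapped that of 0 h. Krt8 in the same cells was at 235, 315, 317 and 222 CPM. The cluster was singled out after its values were seen.

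In mesenchymal-like cells at 4 h, Capg was at 158 CPM, Krt8 at 149, Krt18 at 148 and Krt19 at 30.7. These levels came from 108, 102, 101 and 21 UMIs in 68 cells, against 32, 15, 4 and 1 UMIs in 59 cells at 0 h. The part of single cells, or of RNA from epithelial cells, in these counts was not tested. Of all genes read in mesenchymal-like cells at 4 h, 9.45% were at least 2-fold higher, with a median log2 ratio over all genes of 0.13.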
